A study of Mus musculus with 12 samples.

Results

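The alternative activation (M2) marker genes Arg1, Chil3, Mrc1, Retnla, Clec10a and Tgm2 were followed in bone marrow-derived macrophages (BMDMs), which are macrophages grown in culture from mouse bone marrow. These 6 genes were picked by name as usual markers of the M2 state, with earlier results of these data known. They were found among the 35275 genes listed in each of 12 count files. All 6 passed the filter on low counts that left 12849 genes for testing. The wildtype cells were held for 6 days in medium with M-CSF at 20 ng/ml, IL-4 at 20 ng/ml and IL-10 at 10 ng/ml, so that every group, the control included, had received the cytokines that induce the M2 state. The groups were DMSO (the solvent control), olaparib (an inhibitor of the PARP enzymes, which use NAD to modify proteins) and MNA (methyl-nicotinamide, a derivative of NAD), with 4 libraries in each. Treatment with DMSO, olaparib or MNA lasted 6 days in every library. The marrow came from female or male mice 6 to 10 weeks old, and 4 donor mice are named in the study's legend. The doses of olaparib and MNA in these cultures and the strain of the mice are not given in the sources used here. There was no group without IL-4, so the values show how the markers stood within M2 cultures and not how far they had been induced.

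Alternative activation is the state that macrophages take on under IL-4 or IL-13. These cytokines act through the receptor subunit Il4ra and the transcription factor STAT6, which turns on a set of genes tied to tissue repair, allergy and defence against worms. The 6 genes fill different roles. Chil3 (Ym1, a chitinase-like protein) and Retnla (Fizz1, also called RELM alpha) encode secreted proteins, Arg1 (arginase 1, which splits arginine into ornithine and urea) and Tgm2 (transglutaminase 2, which cross-links proteins) encode enzymes, and Mrc1 (the mannose receptor, CD206) and Clec10a (a C-type lectin for galactose-type sugars, CD301a) encode surface receptors for sugars.

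Positions are given on GRCm38. Chil3 (ENSMUSG00000040809) is a protein-coding gene at chr3:106147554-106167564 on the minus strand, and Retnla (ENSMUSG00000061100) lies at chr16:48842551-48844461 on the plus strand. Arg1 (ENSMUSG00000019987) lies at chr10:24915221-24927484 and Tgm2 (ENSMUSG00000037820) at chr2:158116402-158146436, both on the minus strand. Mrc1 (ENSMUSG00000026712) lies at chr2:14229392-14332057 and Clec10a (ENSMUSG00000000318) at chr11:70156197-70170834, both on the plus strand. The DNA just upstream of the start site is shown for the members held in the RefSeq promoter table (GRCm38.p6, 3 of the 6: Chil3, Retnla and Mrc1), and for Chil4, the near copy of Chil3, because STAT6 is the factor through which IL-4 acts on such genes. Each is written 5′ to 3′ on the strand of its gene and ends just before the annotated start of transcription. They cover chr3:106167565-106167814 (Chil3), chr3:106219508-106219729 (Chil4), chr16:48842359-48842550 (Retnla) and chr2:14229164-14229391 (Mrc1). Capitals mark matches to TTCNNNNGAA, the spacing that STAT6 prefers, or to TTCNNNGAA, the spacing shared by other STAT factors. Both patterns read the same on either strand.
Chil3: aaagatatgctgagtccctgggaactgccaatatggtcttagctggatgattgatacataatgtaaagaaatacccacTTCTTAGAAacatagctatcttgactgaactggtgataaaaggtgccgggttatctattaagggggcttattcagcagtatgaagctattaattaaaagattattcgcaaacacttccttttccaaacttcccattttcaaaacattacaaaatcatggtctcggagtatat
Chil4: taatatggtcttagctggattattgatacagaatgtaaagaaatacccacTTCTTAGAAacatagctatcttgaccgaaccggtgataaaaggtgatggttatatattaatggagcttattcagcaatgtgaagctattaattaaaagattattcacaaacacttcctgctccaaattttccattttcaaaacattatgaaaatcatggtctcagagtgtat
Retnla: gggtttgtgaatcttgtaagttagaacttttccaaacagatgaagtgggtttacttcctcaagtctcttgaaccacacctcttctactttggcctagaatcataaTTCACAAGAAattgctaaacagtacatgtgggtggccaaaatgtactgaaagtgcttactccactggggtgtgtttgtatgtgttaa
Mrc1: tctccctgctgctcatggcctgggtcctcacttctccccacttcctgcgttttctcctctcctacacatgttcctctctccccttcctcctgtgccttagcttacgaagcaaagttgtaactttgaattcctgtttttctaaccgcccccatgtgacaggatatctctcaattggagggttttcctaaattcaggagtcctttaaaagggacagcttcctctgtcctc
Retnla held 1 match to TTCNNNNGAA, 145 bases upstream of the RefSeq start, and Chil3 and Chil4 each held 1 match to TTCNNNGAA, the Chil3 match 172 bases upstream. The Mrc1 window held neither. No match overlapped another. Of 32851 promoter windows of 300 bases in that table, 6.95% held TTCNNNNGAA and 8.30% held TTCNNNGAA. The upstream stretches of Chil3 and Chil4 were identical at 201 aligned bases and differed at 20 (91.0% identity).

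Total gene counts per library ran from 21146291 to 31446849 in the DMSO group, from 24947905 to 28766984 in the olaparib group and from 24076240 to 27501216 in the MNA group, so the depths overlapped. MNA replicate 2 stood apart: 67.4% of tested genes were within the DMSO range in this library, against 23.8% to 25.4% in the other 3 MNA libraries and 30.1% to 33.7% in the olaparib libraries. It is kept as an MNA library, as its label says. The tests of the 6 members and of the genes named for MNA, and the counts of called relatives, are also given without it. It was set apart on its values, which lay near DMSO. Leaving it out thus tends to enlarge MNA differences and shrink the spread in advance, and p-values of those fits carry that choice. Of 7 macrophage genes, Adgre1, Csf1r, Cd68, Itgam, Mertk and Lyz2 were present in every library at 13.4 CPM or more, while Fcgr1 was at most 2.30 CPM. Their summed level was 3864 to 5000 CPM (counts scaled to library size, with TMM factors) with DMSO, 8451 to 10185 with olaparib and 5527 to 7393 in MNA replicates 1, 3 and 4, with 3588 in MNA replicate 2, below every DMSO library. Lyz2 was the largest part of the sum, at 1625 to 2532 CPM with DMSO and 5114 to 6559 with olaparib. Cd68 went against the sum and was called lower with olaparib (adjusted p = 0.00353). In MNA replicates 1, 3 and 4, Csf1r and Itgam lay above their DMSO ranges, and Adgre1, Cd68, Mertk and Lyz2 overlapped theirs. Fcgr1 lay below there, at 0.116 to 0.411 CPM against 0.563 to 1.24 with DMSO. Summed markers of each of 9 other cell classes reached at most 79.9 CPM in any library. Among them, 9 neutrophil genes summed to 6.09 to 19.8 CPM with DMSO, 58.2 to 72.6 with olaparib and 22.1 to 79.9 in MNA replicates 1, 3 and 4. With olaparib the sum was nearly all Mmp8 (55.1 to 69.6 CPM), and Ly6g, a defining neutrophil gene, was at 0 in every DMSO and olaparib library. With MNA, S100a9 reached 20.8 CPM, Ngp 15.04, Ltf 8.97, Mpo 2.29 and Ly6g 0.523 (13 counts), all of them in MNA replicate 4. The 4 erythroid genes reached 54.4 CPM in that same library, mostly Hba-a1 (48.3 CPM). The 4 monocyte genes summed to 0.571 to 0.797 CPM with DMSO, 2.48 to 3.34 with olaparib and 6.14 to 7.94 in MNA replicates 1, 3 and 4. The 5 eosinophil genes summed to 3.78 to 6.95, 31.1 to 58.5 and 6.998 to 9.99 CPM in the same groups, nearly all of it from Siglecf, with Prg2 and Epx at or near 0. The part of such cells in the results was not tested. In bulk RNA, fewer cells of a type and less RNA per cell cannot be told apart.

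In the DMSO cultures the M2 markers covered a wide range of levels, from Chil3, the most abundant mRNA of all, to Clec10a. Chil3 alone took 3.07%, 3.50%, 4.92% and 3.11% of all gene counts in DMSO replicates 1 to 4, and it ranked first of 34490 genes by level per kilobase of exon. To compare genes, levels were divided by exon length. The DMSO means were then 22489 ± 5860 CPM per kb for Chil3, 1482 ± 401 for Retnla, 249 ± 55.4 for Arg1, 149 ± 30.4 for Tgm2, 106.5 ± 19.7 for Mrc1 and 11.3 ± 3.24 for Clec10a (SD, n = 4). By this measure Retnla ranked 18, Arg1 156, Tgm2 259, Mrc1 375 and Clec10a 3538. The libraries of neighbours in this order did not overlap, apart from Tgm2 and Mrc1, whose libraries spanned 109 to 173 and 86.0 to 130.1 CPM per kb.

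With MNA, most M2 markers were far lower than with DMSO in replicates 1, 3 and 4, while replicate 2 stood near the control. With all 12 libraries, Mrc1 and Retnla fell and 4 members did not pass. Without MNA replicate 2, which was set apart on its values, 5 of the 6 members fell (Arg1, Chil3, Mrc1, Retnla and Clec10a). The sixth, Tgm2, did not pass the test. Over all genes tested, 12.3% were called lower and 16.3% higher with all 12 libraries, and 26.9% lower and 27.2% higher without MNA replicate 2. The median log2 fold change of the 6 members was -1.36 with all libraries and -1.96 without MNA replicate 2, beside medians of 0.00 over all tested genes in both fits. In CPM, all MNA libraries, replicate 2 included, lay below all DMSO libraries for 4 of the 6 members (Arg1, Chil3, Mrc1 and Retnla), as did 6.12% of all tested genes. For Chil3 this rests on a small gap, 30311 CPM in MNA replicate 2 against 30405 in the lowest DMSO library, and it did not hold by share of all counts. Without replicate 2 this held for 5 members, beside 27.2% of all tested genes.

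**Figure D1:**
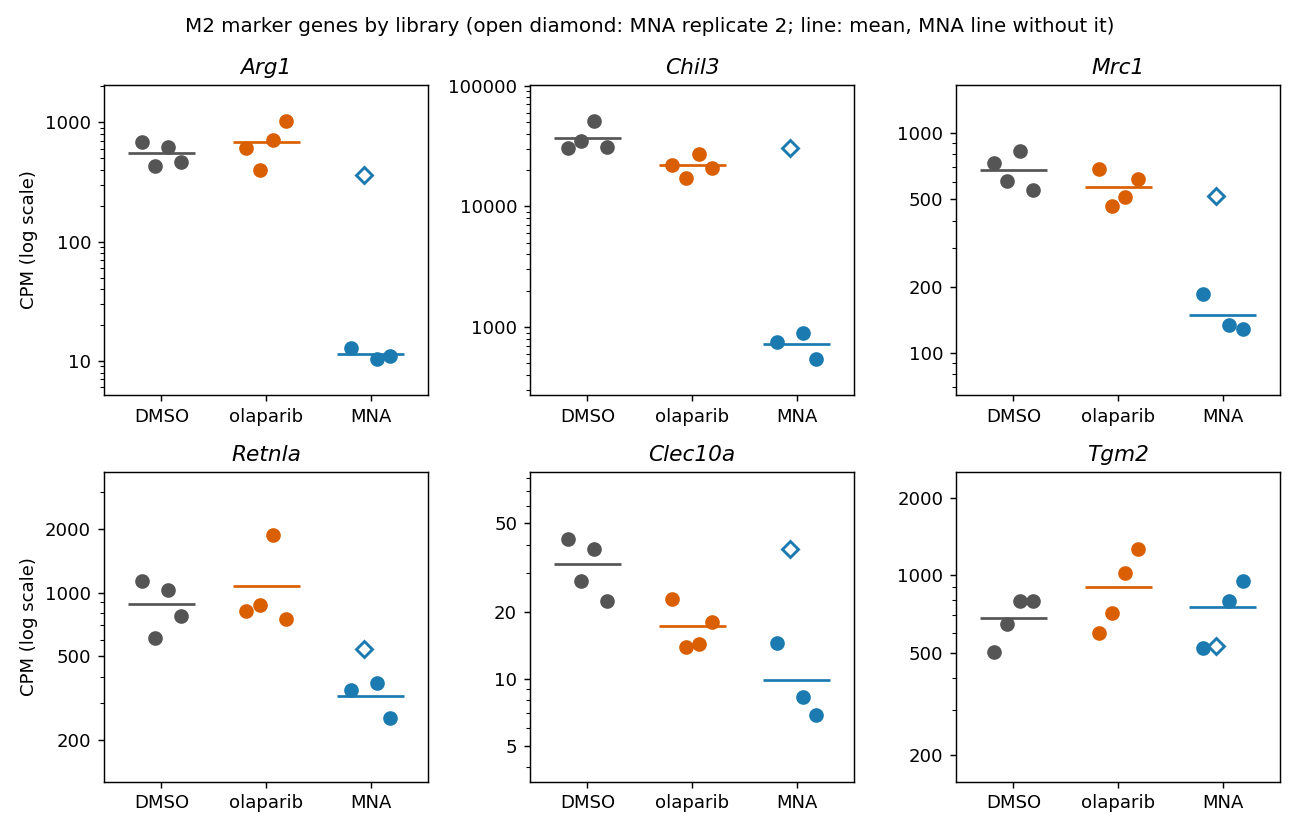
CPM of the 6 M2 marker genes in each of 12 libraries, on log axes, with a panel per gene; circles are libraries, the open diamond is MNA replicate 2, and lines are group means (the MNA line without replicate 2). Arg1 and Chil3 in MNA replicates 1, 3 and 4 lie far below every DMSO and olaparib library, MNA replicate 2 lies within the DMSO libraries for Clec10a and Tgm2 and below the lowest of them for the other 4 genes, and Tgm2 overlaps between all groups.

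Of the secreted proteins, Chil3 showed the largest loss. Its share of all counts was 0.0755%, 0.0883% and 0.0555% in MNA replicates 1, 3 and 4, against 3.08% in MNA replicate 2 and at least 3.07% in each DMSO library. Replicate 2 thus sat at the lower edge of the control range and the other MNA libraries far below it. Without replicate 2, Chil3 fell by 5.66 ± 0.25 on the log2 scale (a 50.6-fold lower level, adjusted p = 1.53e-09). With all 12 libraries the log2 fold change was -2.18 ± 1.07 (adjusted p = 0.133), which did not pass. Even so, Chil3 in MNA replicates 1, 3 and 4 remained an abundant mRNA, with rank 77 per kilobase of exon.

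Retnla had 347, 373 and 255 CPM in MNA replicates 1, 3 and 4 and 543 in replicate 2, below the DMSO libraries at 1137, 611, 1032 and 772 CPM. Every MNA library was thus lower than every DMSO library, and replicate 2 was the nearest to them. Retnla fell by 1.23 ± 0.32 on the log2 scale with all 12 libraries (adjusted p = 0.0211) and by 1.45 ± 0.30 without MNA replicate 2 (2.73-fold lower, adjusted p = 0.00104).

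Of the enzymes, Arg1 was at 12.95, 10.4 and 10.9 CPM in MNA replicates 1, 3 and 4, against 359 in replicate 2 and 691, 435, 626 and 467 CPM in the DMSO libraries. The 3 low MNA libraries held 2.06% of the DMSO mean on average, and replicate 2 held 64.7% of it. Arg1 fell by 5.60 ± 0.32 on the log2 scale without MNA replicate 2 (48.6-fold lower, adjusted p = 1.16e-08), and its log2 fold change with all 12 libraries was -2.49 ± 1.01 (adjusted p = 0.0767). Tgm2 was the exception among the members: it had 522, 532, 799 and 951 CPM in MNA replicates 1 to 4 and 504, 646, 799 and 793 CPM in the DMSO libraries. These ranges overlapped. Its log2 fold change was 0.03 ± 0.26 with all 12 libraries (adjusted p = 0.934) and 0.14 ± 0.25 without MNA replicate 2 (95% interval -0.39 to 0.67, adjusted p = 0.654).

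Of the lectin receptors, Mrc1 had 185, 133 and 129 CPM in MNA replicates 1, 3 and 4, 519 in replicate 2 and 729, 608, 829 and 548 CPM with DMSO. It fell by 1.49 ± 0.38 on the log2 scale with all 12 libraries (adjusted p = 0.0210) and by 2.19 ± 0.18 without MNA replicate 2 (4.56-fold lower, adjusted p = 2.36e-07). Clec10a, the least abundant member, had 14.5, 8.30 and 6.88 CPM in MNA replicates 1, 3 and 4 but 38.3 in replicate 2, which was within the DMSO range of 22.3 to 42.7 CPM. It fell by 1.73 ± 0.27 on the log2 scale without MNA replicate 2 (3.31-fold lower, adjusted p = 1.26e-04), while with all 12 libraries its log2 fold change was -0.94 ± 0.45 (adjusted p = 0.124). The calls of Mrc1 and Retnla with all 12 libraries were lost when DMSO replicate 3 or MNA replicate 1, 3 or 4 was left out, with adjusted p of 0.0539 to 0.0682. In the fit that left out MNA replicate 2, the same 5 members passed whichever of the other 11 libraries was also left out.

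The direction of the olaparib estimates varied between members, and those for Arg1, Chil3, Mrc1 and Retnla were smaller in size than the MNA estimates, whereas that for Tgm2 was larger. With all 12 libraries 0 of 6 members passed edgeR's test (0 also at an unadjusted p under 0.05, and 0 with DESeq2, which gave no adjusted p for Chil3), while 12.8% of all tested genes were called lower and 14.3% higher. Without MNA replicate 2, which belongs to neither group but shares in the estimate of the spread, 2 of 6 fell, Chil3 and Clec10a, beside 21.2% of tested genes called lower and 22.5% higher. The median log2 fold change of the members was 0.02 with all libraries and 0.01 without that replicate, beside 0.00 and 0.01 over all tested genes.

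Chil3 took 2.24%, 1.70%, 2.60% and 2.10% of all counts in olaparib replicates 1 to 4, below the lowest DMSO library (3.07%). All olaparib libraries were below all DMSO libraries for Chil3 alone among the members, as for 20.3% of tested genes. Chil3 fell by 0.75 ± 0.18 on the log2 scale without MNA replicate 2 (1.68-fold lower, adjusted p = 0.00470). With all 12 libraries the log2 fold change was the same, -0.75, with a standard error of 1.03 (adjusted p = 0.613). In spite of the loss, Chil3 was still first per kilobase of exon in the olaparib libraries. Clec10a had 22.9, 13.9, 14.3 and 18.0 CPM with olaparib and 42.7, 27.6, 38.3 and 22.3 with DMSO, so only the highest olaparib and the lowest DMSO library overlapped. It fell by 0.92 ± 0.24 on the log2 scale without MNA replicate 2 (1.89-fold lower, adjusted p = 0.00679), and the log2 fold change was -0.92 ± 0.45 with all libraries (adjusted p = 0.143). When the olaparib and DMSO libraries were fitted alone, the same 2 members passed (adjusted p = 0.00533 for Chil3 and 0.00409 for Clec10a). In pairs of libraries with the same number, Clec10a was lower with olaparib in 4 of 4 pairs. Only its overlapping olaparib and DMSO libraries, if paired, could have given another result. For Chil3 any pairing gives 4 of 4, since its groups did not overlap, so its pairs add nothing.

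Arg1 had 613, 399, 711 and 1030 CPM with olaparib, a range that held the whole DMSO range of 435 to 691 CPM. Its log2 fold change was 0.31 ± 0.22 without MNA replicate 2 (95% interval -0.17 to 0.79, adjusted p = 0.281) and its interval with all 12 libraries was -1.76 to 2.38. Mrc1 had 685, 468, 512 and 619 CPM with olaparib, and its log2 fold change was -0.25 ± 0.15 without MNA replicate 2 (95% interval -0.58 to 0.07, adjusted p = 0.198). Both genes overlapped with their DMSO values. Retnla had 818, 878, 1869 and 751 CPM with olaparib, with replicate 3 far above the others, and its log2 fold change of 0.28 ± 0.27 (95% interval -0.29 to 0.85, adjusted p = 0.423) turned to -0.12 without that library. Tgm2 had 600, 712, 1026 and 1265 CPM with olaparib, and its log2 fold change was 0.39 ± 0.23 without MNA replicate 2 (adjusted p = 0.185). Tgm2 was higher with olaparib in 4 of 4 pairs, by 0.25, 0.14, 0.36 and 0.67 on the log2 scale. With the replicate number as a block it passed the test, at 0.35 ± 0.09 with all 12 libraries (adjusted p = 0.0230) and 0.35 ± 0.07 without MNA replicate 2 (adjusted p = 0.00147), which made 1 and 3 members called.

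**Figure D2:**
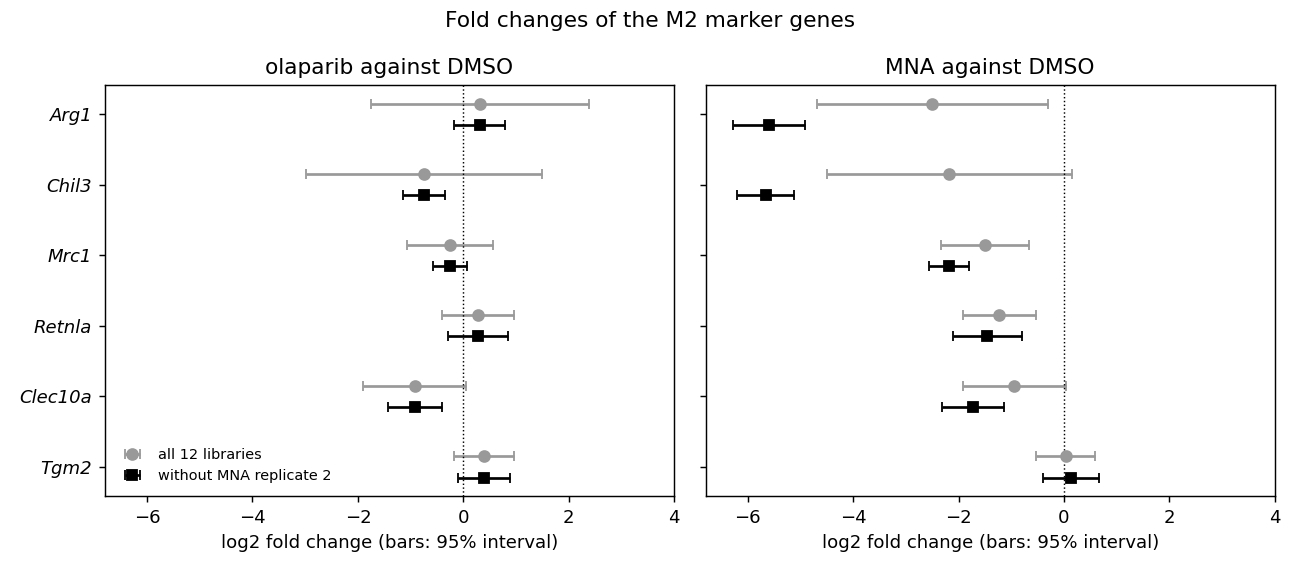
Log2 fold change of each M2 marker gene against DMSO for olaparib (left) and MNA (right), with 95% intervals; grey circles are fits of all 12 libraries and black squares fits without MNA replicate 2. For MNA, Arg1 and Chil3 move from -2.49 and -2.18 to -5.60 and -5.66 once replicate 2 is left out, and for olaparib the values stay in place while the intervals narrow.

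The treatments also differed from each other in these markers. With all 12 libraries 2 of 6 members were higher with olaparib than with MNA, Mrc1 (log2 fold change 1.24 ± 0.38, adjusted p = 0.0371) and Retnla (1.51 ± 0.32, adjusted p = 0.00663), beside 10.9% of tested genes called higher and 10.9% lower. Leaving out MNA replicate 2, 5 of 6 were higher with olaparib, beside 21.5% of tested genes called higher and 20.7% lower. Arg1 was then 60.3-fold, Chil3 30.1-fold, Mrc1 3.83-fold, Retnla 3.32-fold and Clec10a 1.75-fold higher, with adjusted p of 1.51e-08, 9.71e-09, 1.52e-06, 4.55e-04 and 0.0288. With all 12 libraries the ratios were 6.996 for Arg1 (adjusted p = 0.0680), 2.69 for Chil3 (adjusted p = 0.358), 2.36 for Mrc1, 2.84 for Retnla and 1.02 for Clec10a (adjusted p = 0.982). The log2 fold change of Tgm2 with all 12 libraries was 0.36 ± 0.26 (adjusted p = 0.345). It was 0.25 ± 0.25 without MNA replicate 2 (95% interval -0.28 to 0.79, adjusted p = 0.446). The Mrc1 call with all 12 libraries was lost in 9 of the 12 fits that left out a single library, and that of Retnla held in each of the 12. The Clec10a call without MNA replicate 2 was lost when olaparib replicate 1 or 4 or MNA replicate 3 or 4 was left out as well.

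The near copies of the members put the largest changes in context, since reads can be shared between such genes. Of the 31-base words in Chil3 transcripts, 41.5% also occur in other genes, 28.9% in Chil4 and 24.1% in the gene Gm6522. Of those of Clec10a, 14.8% occur elsewhere (13.7% in Mgl2), and of those of Retnla, 5.45% (in Retnlg). Tgm2 overlaps 2 genes on the opposite strand, Rprd1b and Gm20412, which share 7.48% and 12.5% of its words, and the strand setting of the counting is not given in the sources used here, so its level is uncertain to that extent. Arg1 and Mrc1 shared 0% of theirs. At the read length of 150 bases, words were compared on the same strand only. Of Clec10a words 0.931% were then shared, with Mgl2, and 0% for the other 5 members. That search could not find the overlaps of Tgm2 with Rprd1b and Gm20412, which are on the opposite strand, so its 0% does not bear on them.

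Chil4 (Ym2, a chitinase-like protein) followed Chil3 but by larger steps. It had 102, 131, 225 and 129 CPM in DMSO replicates 1 to 4, 18.7, 14.0, 17.8 and 17.6 CPM in olaparib replicates 1 to 4, and 0.658, 61.2, 0.0772 and 0.201 CPM in MNA replicates 1 to 4. All olaparib and all MNA libraries were below all DMSO libraries, and of the MNA libraries replicate 2 was the nearest to them. Chil4 fell under both treatments once MNA replicate 2 was left out, with log2 fold changes of -3.11 ± 0.22 for olaparib (adjusted p = 2.87e-07) and -8.88 ± 0.42 for MNA (adjusted p = 2.36e-09). Its log2 fold changes with all 12 libraries were -3.11 ± 1.20 and -3.23 ± 1.21 (adjusted p = 0.0718 and 0.0607). Chil4 held 0.335% to 0.443% of the Chil3 counts with DMSO, 0.0655% to 0.0845% with olaparib and at most 0.0880% in MNA replicates 1, 3 and 4.

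Mgl2 (CD301b), the near copy of Clec10a, went another way. It had 917, 475, 472 and 607 CPM with DMSO, 1174, 723, 681 and 1148 CPM with olaparib and 799, 559, 613 and 552 CPM with MNA, well above Clec10a in every library. The groups overlapped, and the log2 fold change of Mgl2 against DMSO was 0.59 ± 0.24 with olaparib (adjusted p = 0.0861) and 0.03 ± 0.24 with MNA (adjusted p = 0.934). Without MNA replicate 2 Mgl2 was called higher with olaparib (adjusted p = 0.0471), the direction opposite to that of Clec10a. F13a1, the transglutaminase subunit of clotting factor XIII, rose with olaparib by 5.32 ± 0.44 on the log2 scale (adjusted p = 2.51e-05), from 0.238 ± 0.180 to 10.0 ± 1.72 CPM (SD, n = 4). Arg2, the mitochondrial arginase, and Tgm1 were at most 1.08 and 3.23 CPM in any library. In all, 5 of 11 listed relatives could be tested with all 12 libraries: 1 was called with olaparib (F13a1), and with MNA the smallest adjusted p was 0.0563 (Tgm1). When MNA replicate 2 was left out, 6 could be tested. Of these, 3 were called higher and 2 lower with olaparib, beside 22.5% and 21.2% of all tested genes. With MNA it was 1 higher and 2 lower, beside 27.2% and 26.9%.

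**Figure D3:**
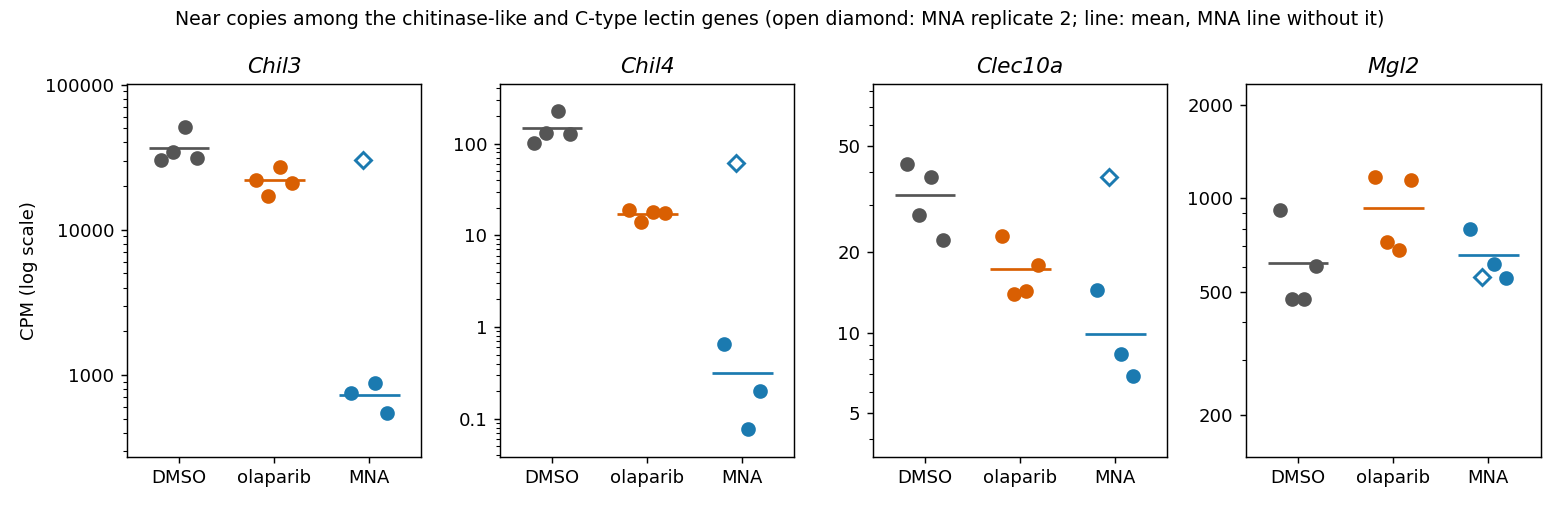
CPM by library, on log axes, of Chil3 and its near copy Chil4 and of Clec10a and its near copy Mgl2; circles are libraries, the open diamond is MNA replicate 2, and lines are group means (the MNA line without replicate 2). Chil4 steps down from DMSO (102 to 225 CPM) to olaparib (14.0 to 18.7 CPM) to MNA replicates 1, 3 and 4 (0.0772 to 0.658 CPM), and Mgl2 overlaps between groups.

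Genes that act upstream of the markers changed in both directions. The counts of each list are to be read against all tested genes, of which 14.3% were higher and 12.8% lower with olaparib and 16.3% and 12.3% with MNA, or 22.5% and 21.2%, and 27.2% and 26.9%, when MNA replicate 2 was left out. Of 15 genes of IL-4, IL-13 and IL-10 signalling, 4 were called higher and 4 lower with olaparib and 6 higher and 3 lower with MNA (median log2 fold changes 0.22 and 0.19). Socs3, a feedback inhibitor of STAT3 signalling, averaged 15.9 ± 3.80 CPM with DMSO and fell to 2.71 ± 0.87 with olaparib, a log2 fold change of -2.55 ± 0.42 (adjusted p = 0.00186), and Stat3 and Irs2, an adaptor of the IL-4 receptor, fell by 0.66 and 0.91 on the log2 scale. With MNA, Il13ra1, the receptor subunit that binds IL-13, rose to a mean of 21.4 ± 9.20 CPM, against 6.07 ± 0.53 with DMSO, a log2 fold change of 1.82 ± 0.31 (adjusted p = 0.0142), and Socs1 and Ptpn6, both negative regulators of cytokine signalling, rose by 1.35 and 1.25 on the log2 scale. In the fit without MNA replicate 2 these were 2.10, 1.62 and 1.50 for Il13ra1, Socs1 and Ptpn6. Il13ra1 also lay above every DMSO library with olaparib, at 7.21 to 10.7 CPM against 5.33 to 6.47. So did Ptpn6, at 87.7 to 96.96 CPM against 55.8 to 59.04, while Socs1 overlapped. In MNA replicates 1, 3 and 4, Socs3 lay below every DMSO library, at 3.09 to 3.901 CPM against 12.1 to 21.2. Irs2 lay below there too, at 19.3 to 19.99 CPM against 27.05 to 39.7, while Stat3 overlapped. Leaving out MNA replicate 2 gave 7 higher and 4 lower with olaparib, and 8 higher and 4 lower with MNA.

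Transcription and chromatin factors of alternative activation were mostly lower with MNA. Of 12, 8 fell and 1 rose, and without MNA replicate 2, 10 fell and 1 rose (median log2 fold change -0.45 and -0.60). Klf4, which works with STAT6, had 32.8, 40.4 and 32.5 CPM in MNA replicates 1, 3 and 4, 111 in replicate 2 and 132 to 146 CPM with DMSO (log2 fold change -1.33 ± 0.33, adjusted p = 0.0192). Maf fell by 0.86, and Batf3, which rose by 0.95, was the exception. In the fit without MNA replicate 2 the log2 fold changes were -1.95 for Klf4, -1.12 for Maf and 1.11 for Batf3. With olaparib 2 of the 12 rose and 2 fell (4 and 4 without MNA replicate 2). Pparg, a nuclear receptor that sustains the M2 state, had 95.7 ± 21.6 CPM with olaparib and 211 ± 43.2 with DMSO. It fell by 1.14 ± 0.22 on the log2 scale (adjusted p = 0.00352). Kdm6b, a histone demethylase, fell by 0.43, and Egr2 rose by 0.26. With olaparib, Klf4 (75.4 to 92.6 CPM) also lay below every DMSO library and Batf3 (23.7 to 32.6) above. Maf lay above as well, against its fall with MNA. In MNA replicates 1, 3 and 4, Pparg (101 to 146 CPM) and Kdm6b (43.5 to 49.3) also lay below every DMSO library. Egr2 lay below there too, against its rise with olaparib.

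Other genes used as M2 markers split in both directions. Of 22 tested out of 26, 8 rose and 2 fell with olaparib, and 3 rose and 5 fell with MNA. When MNA replicate 2 was left out, these were 15 and 3 with olaparib and 8 and 10 with MNA. Ccl24 (eotaxin-2, a chemokine for eosinophils) fell with olaparib to 57.8 ± 23.7 CPM, against 384 ± 89.0 with DMSO (a log2 fold change of -2.73 ± 0.30 with adjusted p = 1.34e-04), whereas Stab1, a scavenger receptor, rose by 2.17 ± 0.30 (adjusted p = 7.19e-04) and Matk by 0.89. With MNA, Flt1 (a VEGF receptor) rose by 2.31, Il4i1 (an amino acid oxidase induced by IL-4) by 1.91 and Dcstamp (needed for cell fusion) by 1.50 on the log2 scale. Their adjusted p were 0.0142, 0.0144 and 0.0154, and in the fit without MNA replicate 2 the log2 fold changes were 2.65 for Flt1, 2.24 for Il4i1 and 1.78 for Dcstamp. Dcstamp (480 to 545 CPM) and Il4i1 (4.66 to 6.39) also lay above every DMSO library with olaparib, while Flt1 overlapped. In MNA replicates 1, 3 and 4, Ccl24 (187 to 221 CPM) lay below every DMSO library and Matk above, as with olaparib. Stab1 went the other way there, with at most 5.84 CPM against 5.86 in the lowest DMSO library.

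Of 10 genes of arginine and polyamine metabolism, in which Arg1 acts, 3 rose and 2 fell with olaparib, and 1 rose and 4 fell with MNA (3 and 4, and 1 and 6, when MNA replicate 2 was left out). Ass1, which rebuilds arginine from citrulline, rose with olaparib by 2.26 ± 0.19 on the log2 scale (adjusted p = 2.51e-05), with means of 613 ± 190 CPM against 128 ± 21.3. Slc7a1, an arginine transporter, fell by 1.45 and Odc1, which turns ornithine into polyamines, by 0.43 on the log2 scale. Slc7a1 also fell with MNA, by 0.81 on the log2 scale (adjusted p = 0.0393) and by 1.22 without MNA replicate 2. With MNA, Slc7a2, the other arginine transporter of macrophages, fell by 0.82, Oat by 0.21 and Nos2 by 1.08 on the log2 scale (adjusted p = 0.0181, 0.0254 and 0.0309), and in the fit without MNA replicate 2 their log2 fold changes were -1.09, -0.27 and -1.32. Nos2, which makes nitric oxide from arginine and is the usual counterpart of Arg1 in classical activation, had 30.6, 44.2, 91.7 and 70.0 CPM with olaparib, above its 12.6 to 22.7 CPM with DMSO, and 8.47, 12.8, 6.56 and 7.80 CPM with MNA. All olaparib libraries were above all DMSO libraries, and of the MNA libraries only replicate 2 reached the DMSO range. By a small gap, Oat lay below every DMSO library with olaparib, at most 111.9 CPM against 112.3, while Slc7a2 overlapped. In MNA replicates 1, 3 and 4, Ass1 and Odc1 overlapped their DMSO ranges.

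Markers of classical (M1) activation were mostly low. Of 14, 9 could be tested, and 3 rose with olaparib and 5 with MNA (median log2 fold change 0.53 and 0.73). With MNA replicate 2 left out, 10 could be tested, 3 rose with olaparib, and 6 rose and 1 fell with MNA. Ccr7, a chemokine receptor, rose by 2.62 with olaparib and 4.55 with MNA on the log2 scale, but from 0.231 CPM to means of only 1.45 and 5.56 CPM. Irf5, a transcription factor of that state, rose from 182 ± 21.5 CPM to 263 ± 5.88 with olaparib and 301 ± 78.3 with MNA (adjusted p = 0.0329 and 0.0163). Cd80 rose with olaparib by 0.70 and Ptgs2 with MNA by 2.83 on the log2 scale, the latter from 0.367 to 2.64 CPM. In the fit without MNA replicate 2 the MNA log2 fold changes were 4.94 for Ccr7, 0.90 for Irf5 (0.73 with all libraries) and 3.16 for Ptgs2. Il12b, Il6, Cxcl9, Cxcl10 and Fpr2 were too low to test. The counts of the 5 lists with all 12 libraries leaned on single libraries: for MNA, leaving out MNA replicate 1, 3 or 4 left 2 signalling genes called, 1 transcription or chromatin factor, 2 to 3 other M2 markers, 0 arginine genes and 2 classical markers by edgeR, and leaving out DMSO replicate 2, 3 or 4 left 2 to 4, 3 to 5, 3 to 4, 0 to 1 and 3 to 4. For olaparib, the 8 signalling calls became 4 to 5 on leaving out each DMSO or olaparib library in turn and 4 without MNA replicate 3, and the 3 classical calls became 1 without DMSO or olaparib replicate 2, 3 or 4 and 2 without DMSO replicate 1. Olaparib and MNA were both compared with the same DMSO libraries, so their counts are not independent of each other.

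**Figure D4:**
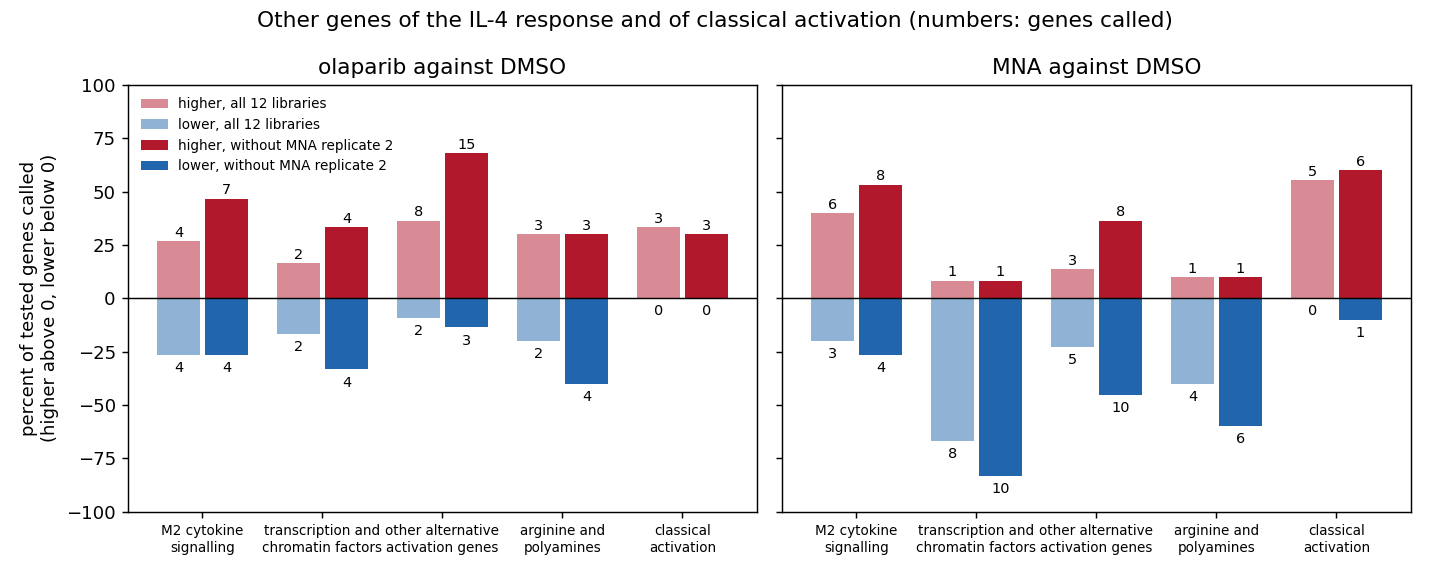
Percent of the tested genes of 5 lists that were called higher (above 0) or lower (below 0) than DMSO, for olaparib (left) and MNA (right), with all 12 libraries (pale) and without MNA replicate 2 (dark); the numbers are genes called. Lower calls under MNA are most frequent among the transcription and chromatin factors (8 and 10 of 12), and under olaparib higher calls lead among the other alternative activation genes (8 and 15 of 22).

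The members did not share a single pattern over the libraries. Pearson r of log2 CPM over the 12 libraries was 0.970 between Arg1 and Chil3, 0.971 between Arg1 and Mrc1 and 0.973 between Chil3 and Mrc1, 0.803 to 0.847 between these and Retnla, 0.718 to 0.839 between these and Clec10a, and from -0.48 to 0.12 between Tgm2 and the others. These values are descriptions, since the libraries share their treatment groups. Among the 9745 genes averaging 100 counts or more, those most like Arg1 were Ddx4 (0.994), Gypc (0.990) and Fbp1 (0.990, fructose-bisphosphatase of gluconeogenesis). Those most like Chil3 were Ahnak2 (0.993), Slc27a1 (0.991, a fatty acid transporter) and Ctsk (0.989, the protease cathepsin K). Mrc1 was nearest to Mfsd7a (0.985), Msx3 (0.984) and Bok (0.982), and Retnla to Plpbp (0.948), Ankrd55 (0.934) and the chemokine gene Ccl6 (0.929). Clec10a was nearest to Arhgap12 (0.967), Zfp971 (0.965) and Pcnp (0.965). Tgm2 was nearest to Acp5 (0.900, tartrate-resistant acid phosphatase), Tmem101 (0.881) and Tmem9 (0.877).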

How the data were processed

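RNA of 12 BMDM libraries was measured by single-end sequencing of stranded mRNA libraries. Per the labels and methods, the authors aligned reads to GRCm38.p5 with STAR 2.5.2b and an Ensembl 99 annotation, and deposited raw counts per gene without normalization. Which strand column was deposited is not given in the sources used here. Of 35275 gene IDs, 34490 matched a GENCODE annotation of GRCm38, from which symbols, positions and exon lengths came.

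Genes passing filterByExpr (minimum count 10, minimum total 15) entered 1 model of the 12 libraries, fitted by edgeR 4.0.16 (TMM factors, quasi-likelihood tests, R 4.3.3). Calls used a threshold of 0.05 on p-values adjusted by Benjamini-Hochberg over the tested genes. Values after ± are SEs for log2 fold changes and SDs for levels, and CPM were TMM-scaled. DESeq2 1.42.0, other normalizations and filters, a replicate block, fits of 2 groups alone and leaving out each library were alternatives. The edgeR and DESeq2 steps were tested on simulated counts. No 2 libraries held identical values.

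The members, the lists and the tests were chosen with earlier results of these data known. The named genes are the 6 members, all tested relatives, the 3 genes of each of the 5 further lists with the smallest p in each comparison with DMSO, and the 3 genes (mean of at least 100 counts) with the highest Pearson r to each member. Nos2 with olaparib was added after its values were seen. Same-numbered olaparib and DMSO libraries deviated together (Pearson r of 0.227, 0.172, 0.225 and 0.408 across genes). Differently numbered libraries were not compared, so these values do not settle whether the numbers pair the libraries. The replicate block assumes that they do. A positive r did not hold for every MNA pair. The labels do not tie the numbers to mice, so p-values may measure a spread that is partly technical. Each member had at least 171 counts in each library, and 15 genes of the lists were too low to test with all 12 libraries.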

Additional observations from a re-analysis of the deposited data

Results flagged for a closer look

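In 17 of the 117 checks of a gene in a group of 4 libraries (39 genes), a single library stood far from the other 3 by Dixon's test at the 95% level. Chance flags about 1 in 20 of independent checks of normal values. These checks share the same libraries, and many of the genes were named for a small p, so that rate does not apply here. In 12 of the 17 the library was MNA replicate 2. Among the members, it was high for Arg1 (359 CPM, others 10.4 to 12.95), Chil3 (30311 CPM, others 547 to 884) and Mrc1 (519 CPM, others 129 to 185). Among the other genes it was high for Chil4 (61.2 CPM), Socs3 (12.3 CPM), Irs2 (32.7 CPM), Klf4 (111 CPM), Slc7a2 (1385 CPM) and Oat (110.7 CPM, others 95.6 to 97.5), and low for Dcstamp (198 CPM), Irf5 (183 CPM) and Ptgs2 (0.573 CPM). The other flags were olaparib replicate 3 for Retnla (1869 CPM, others 751 to 878), olaparib replicate 4 for Ass1 (894 CPM), DMSO replicate 4 for Arg2 (0.317 CPM) and F13a1 (0.508 CPM), and DMSO replicate 1 for Klf4 (146 CPM).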

How the results depend on the processing

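Counts of members called (olaparib against DMSO, MNA against DMSO, olaparib against MNA) were 0, 2 and 2 with all 12 libraries and the same under RLE size factors, upper quartile scaling, library totals, both other filters and a change of at least 2-fold. DESeq2 called 0, 3 and 3, adding Arg1 and giving no adjusted p for Chil3. With the replicate block they were 1, 4 and 4 (adding Tgm2, then Arg1 and Chil3, then Arg1 and Tgm2), and with the block and without MNA replicate 2 they were 3, 5 and 6. With 2 groups fitted alone they were 2, 0 and 1, and at an adjusted p under 0.01 they were 0, 0 and 1. The MNA fit alone called 0 of all genes (4728 at an unadjusted p under 0.05, 2 members among them, and 4449 with DESeq2 on all libraries), and at 0.01 the fit of all libraries called 0 for MNA by edgeR (smallest adjusted p 0.0142, with 5756 genes and 3 members at an unadjusted p under 0.05). Leaving out a library gave 0 to 2, 0 to 5 and 1 to 5 members. Both MNA calls were lost without DMSO replicate 3 or MNA replicate 1, 3 or 4, and the highest counts came without MNA replicate 2. In the fit without that library, leaving out a further library, chosen after the values were seen, gave 2 to 3, 5 and 4 to 5 members. Over all tested genes, 3475, 3673 and 2800 were called. The block without MNA replicate 2 called 6116, 7165 and 5742, fits of 2 groups alone 5720, 0 and 1808, the 0.01 threshold 1382, 0 and 1166, and a 2-fold minimum 889, 957 and 765. Leaving out a library gave 2152 to 5694, 463 to 7042 and 1950 to 5503, with the highest each time without MNA replicate 2. More than 1.5 times below the counts of all 12 libraries were those without DMSO replicate 3 (2293) or olaparib replicate 4 (2152), and, for MNA, those without DMSO replicate 2, 3 or 4 (1348, 1234 and 1720) or MNA replicate 1, 3 or 4 (848, 463 and 503). Direction turned only for members that did not pass. Retnla with olaparib was -0.13 without olaparib replicate 3 and at most 0.42 with another library left out. Tgm2 with MNA was -0.09 without DMSO replicate 1, -0.03 without MNA replicate 3 and -0.15 without MNA replicate 4, and at most 0.15 with another library left out. Clec10a, olaparib against MNA, was -0.0039 under library totals and -0.15, -0.0017, -0.05, -0.21 and -0.24 without olaparib replicate 1 or 4 or MNA replicate 1, 3 or 4, and 0.81 without MNA replicate 2. The same-numbered MNA and DMSO libraries had r of 0.242, 0.114, -0.0094 and 0.277, which do not settle whether their numbers pair them. The cause of these changes was not tested.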

Other observations

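Within groups the members varied by similar amounts with DMSO, with a coefficient of variation of 18.5% (Mrc1) to 28.8% (Clec10a) over 4 libraries. With olaparib it was 38.1% for Arg1, 49.1% for Retnla and 33.6% for Tgm2, and the highest library was olaparib replicate 4 for Arg1 and Tgm2 and replicate 3 for Retnla. In MNA replicates 1, 3 and 4 Arg1, though nearly lost, varied least of the members, by 11.8%. Per kilobase of exon, the order of the members changed in those 3 libraries to Retnla (543 CPM per kb), Chil3 (445), Tgm2 (164), Mrc1 (23.4), Arg1 (5.13) and Clec10a (3.41), with Arg1 moving from rank 156 of all genes with DMSO to rank 5953.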
